A study of Oryza sativa with 6 samples.

Results

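Type 2C protein phosphatases (PP2C) are enzymes that remove phosphate from serine and threonine residues and need magnesium or manganese. They were taken from the deposited count table as the genes whose listed name begins with PP2C, BIPP2C or PP108, with or without the prefix Os. By this rule, which leaves out 1 locus, 74 of the 36960 features were members, and 66 of these passed the filter on low counts. The name rule follows the table's spelling, so phosphatases of this type listed under other names (DCW11, XB15 and OsABIL2, whose RefSeq synonyms include PP2C numbers, and any gene with an OsPP number) were not counted as members. The name rule itself used no measured value, but it was set with earlier results of these data known.

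RNA had been sequenced from rice (Oryza sativa) roots of 3 samples of mads61-3, a mutant line of the MADS-box transcription factor gene OsMADS61, and of 3 wild-type (WT) samples. Seedlings of both groups were kept in a modified IRRI solution with 2.5 mM nitrate, a supply the labels call high, and grew without a fungal symbiont. The wider study concerned nitrate transport and OsMADS61. The labels name 1 mutant line, give neither its allele nor the plants' age, and do not say whether the samples of a group came from separate tanks, so the p-values rest on the spread among 3 samples a group, and that spread could be technical.

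In plants the best known PP2C enzymes are those of subfamily A, which hold certain SnRK2 kinases inactive in the absence of abscisic acid (ABA). When the hormone binds its PYL/RCAR receptors, the receptor and hormone together block the phosphatase, and the kinases then phosphorylate bZIP transcription factors and ion channels. In Arabidopsis, phosphatases of this type also act on nitrate uptake: ABI2 sets the phosphorylation of the nitrate transporter NPF6.3 through a calcium sensor and its kinase, and CEPH dephosphorylates NRT2.1. Other subfamilies act on MAP kinases, receptor kinases and proton pumps.

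OsMADS61 (Os04g0461300) had 214, 73 and 126 counts in mads61-3 replicates 1 to 3, against 12600, 14468 and 67 in WT replicates 1 to 3. For this gene the library labelled WT replicate 3 thus stood at the mutant level, and results are given with and without it. Over the tested features its counts had a Spearman correlation of 0.951 with WT replicate 2. With WT replicate 1 it was 0.882, the lowest of all pairs of libraries, and with mads61-3 replicates 1 to 3 it was 0.900, 0.922 and 0.893. Why the library labelled WT replicate 3 differed was not tested. The log2 fold change of OsMADS61 was -6.40 (mutant over WT, SE 1.71, edgeR, adjusted p = 0.129), and it was -6.99 when that library was left out (edgeR, adjusted p = 0.00746). Library totals were 27060698 to 34179150 counts in the mutant and 24145708 to 27338562 in WT, and 3 counts stood for 0.0875 to 0.131 CPM (counts scaled to library size, with TMM factors). Root markers were present in all libraries (LSI1, LSI2, RCc3, SCR1 and SHR1, 3026 to 7094 CPM in all in the mutant and 1665 to 3114 in WT). LSI1 and LSI2 carried most of that sum, except in the library labelled WT replicate 3, where RCc3 was the highest of these markers. RCc3 had 68.5, 77.0 and 56.0 CPM in the mutant, against 28.5, 216 and 940.3 in WT replicates 1 to 3. By edgeR 0 of the 5 root markers were called (before adjustment 2 were higher and 1 lower), and DESeq2 called LSI1 and LSI2 higher and RCc3 lower. Marker genes of green shoot tissue summed to 48.4, 343 and 182 CPM in mads61-3 replicates 1 to 3, against 39.4, 54.0 and 23.8 CPM in WT replicates 1 to 3. Of 13 such genes 0 were at 0 counts in any mutant library, against 2, 0 and 5 in the WT libraries, and 12 of the 12 tested had a positive log2 fold change, 6 with an unadjusted p under 0.05 (edgeR, 0 called; DESeq2, 4 called higher). Their part in the results below was not tested. In whole roots, fewer cells of a type and less RNA per cell cannot be told apart.

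As a family the PP2C genes took about the same share of the root RNA in both groups. Their summed level was 3280, 2591 and 3594 CPM in mads61-3 replicates 1 to 3 and 4782, 3055 and 2587 CPM in WT replicates 1 to 3, so the groups overlapped. That was 0.322% ± 0.0290 of all counts in the mutant and 0.331% ± 0.0718 in WT (SD, n = 3 each). The 66 tested members divided evenly, 33 with a positive and 33 with a negative log2 fold change (mutant over WT), and their median was 0.00, against -0.04 for all 25531 features tested. With the library labelled WT replicate 3 left out, the medians were -0.05 for the members and 0.00 for all features. A log2 fold change between -1 and 1 was found for 54 of the 66 (81.8%), and for 82.1% of all features.

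Against that even background 1 member was called, OsPP2C32, which fell in the mutant. The test was edgeR's quasi-likelihood F-test with Benjamini-Hochberg adjustment over all 25531 features, and genes were called at an adjusted p under 0.05. It called 1 of 66 PP2C genes lower (1.52%) and 0 higher, where 1.25% of all features were called (0.924% lower and 0.325% higher). At an unadjusted p under 0.05, 12 members were past the limit (18.2%), 3 higher and 9 lower, against 16.5% of all features (7.86% higher and 8.68% lower). DESeq2 called 3 members higher and 5 lower, or 11.6% of the 69 with an adjusted p, where it called 8.71% of all such features (3.96% higher and 4.75% lower). Limma-voom called 1 member lower and 0 higher, with 0.885% of all features called (0.638% lower and 0.247% higher). In 16 members (24.2%) the CPM of the groups did not overlap, 5 with the mutant above and 11 with it below, against 22.7% of all features (11.4% above and 11.3% below). These shares lay near the background, so the results below describe single members and say nothing particular to the family.

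**Figure D1:**
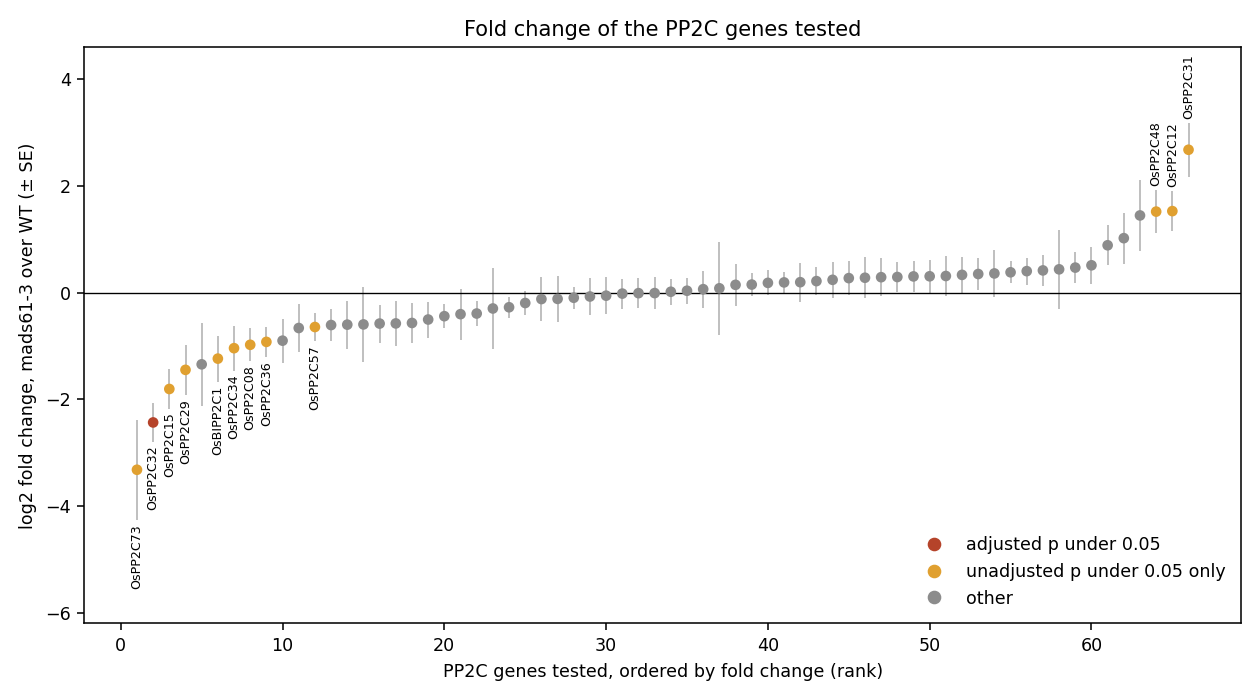
Log2 fold change (mads61-3 over WT, vertical axis, with its SE as bars) of the 66 PP2C genes tested, ordered by size along the horizontal axis; named points had an unadjusted p under 0.05. Most points lie near 0, and OsPP2C32, at -2.43, is the only member past the adjusted threshold.

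OsPP2C32 (Os03g0292100, chromosome 3) had 19.7, 26.1 and 20.3 CPM in mads61-3 replicates 1 to 3, against 177, 107 and 72.7 CPM in WT replicates 1 to 3. Every mutant library lay well below every WT library, and the WT values themselves spread more than the mutant ones. The means were 22.01 ± 3.57 CPM in the mutant and 119 ± 53.4 in WT (SD, n = 3 each, as for all means below), on 2017 counts in the mutant and 8789 in WT. Its log2 fold change was -2.43 (SE 0.36, edgeR, adjusted p = 0.0378). The deposited FPKM (fragments scaled to feature length and library depth) showed the same order, with 10.9, 15.97 and 10.8 in the mutant and 83.0, 61.1 and 40.9 in WT. Leaving out the library labelled WT replicate 3 gave a log2 fold change of -2.69 (edgeR, adjusted p = 0.0135). OsPP2C32 was also the 1 member called lower without WT replicate 1 (edgeR, adjusted p = 0.0188, with 1.65% of all features lower and 0.865% higher, 2.51% in all). The same held in limma on log2(FPKM + 1) (limma, adjusted p = 0.0228, with 1.23% of features lower and 0.725% higher, 1.95% in all). The gene was no longer called without WT replicate 2 (edgeR, adjusted p = 0.0829) or without mads61-3 replicate 1, 2 or 3 (0.182, 0.0944 and 0.197), and its adjusted p ranged from 2.16e-08 to 0.197 over all settings tried.

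Other members stood lower in the mutant without passing the threshold, led by OsPP2C15 and OsPP2C73. OsPP2C15 (Os02g0567200, chromosome 2) had 18.5, 20.04 and 16.2 CPM in mads61-3 replicates 1 to 3, against 83.4, 32.1 and 75.7 in WT replicates 1 to 3. The mutant libraries were close together and all below WT, where replicate 2 was the lowest. Its log2 fold change was -1.81 (SE 0.37, edgeR, adjusted p = 0.0729). It was the 1 member called without WT replicate 2 (log2 -2.13, edgeR, adjusted p = 0.0374), where 0.407% of all features were called (0.381% lower and 0.0266% higher). OsPP2C73 (Os11g0109000, chromosome 11) had 21, 13 and 25 counts in mads61-3 replicates 1 to 3, against 350, 37 and 81 in WT replicates 1 to 3. WT replicate 1 stood far above the other WT libraries. OsPP2C73 had the lowest log2 fold change of the tested members, -3.32 (SE 0.94, edgeR, adjusted p = 0.146), and without WT replicate 1 it was -1.73 (edgeR, adjusted p = 0.108). Leaving out the library labelled WT replicate 3 gave log2 fold changes of -1.66 for OsPP2C15 and -3.68 for OsPP2C73, both uncalled (0.0884 and 0.106, edgeR's adjusted p). OsPP2C73 lies near the start of chromosome 11, which is duplicated on chromosome 12, so the assignment of its reads is uncertain.

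OsBIPP2C1 is a gene known in rice for its induction by benzothiadiazole, a chemical that primes disease resistance. OsBIPP2C1 (Os03g0192500, chromosome 3) had 25.3, 24.8 and 30.9 CPM in mads61-3 replicates 1 to 3, against 99.5, 63.0 and 28.5 CPM in WT replicates 1 to 3. The library labelled WT replicate 3 fell inside the mutant range, while both other WT libraries were above it. The log2 fold change was -1.24 (SE 0.43, edgeR, adjusted p = 0.222) with all libraries. When that library was left out it was -1.59 and was called (edgeR, adjusted p = 0.0366), and without WT replicate 1 it was -0.76 and was not (edgeR, adjusted p = 0.202). With OsPP2C32, 2 members were then lower and 0 higher, where 2.76% of all features were called (2.02% lower and 0.745% higher). In DESeq2 on all libraries OsBIPP2C1 had an adjusted p of 0.0755. OsPP2C34 (Os03g0761100, chromosome 3), for which RefSeq gives BIPP2C2 as a synonym, had 82.1, 63.3 and 88.1 CPM in mads61-3 replicates 1 to 3, against 272, 108 and 100.3 CPM in WT replicates 1 to 3. All mutant libraries were below all WT libraries, but only WT replicate 1 was far above them. Its log2 fold change of -1.04 (SE 0.42, edgeR, adjusted p = 0.286) was -0.42 without WT replicate 1 (edgeR, adjusted p = 0.234).

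A further 3 members outside subfamily A were lower at an unadjusted p under 0.05. OsPP2C29 (Os03g0207400, chromosome 3) had 5.98, 5.61 and 6.09 CPM in the mutant, against 28.1, 7.92 and 12.2 in WT (log2 -1.45, SE 0.47, edgeR, adjusted p = 0.196). OsPP2C36 (Os03g0832400, chromosome 3) had 11.9, 14.4 and 10.2 CPM in the mutant, against 16.8, 22.6 and 29.9 in WT (log2 -0.92, SE 0.28, edgeR, adjusted p = 0.175). OsPP2C57 (Os06g0597200, chromosome 6) had 67.0, 79.4 and 79.2 CPM in the mutant, against 156, 111 and 86.0 in WT (log2 -0.64, SE 0.26, edgeR, adjusted p = 0.286). In each the groups did not overlap, and the mutant libraries were closer together than the WT libraries. WT replicate 1 was the highest WT library in OsPP2C29 and OsPP2C57 and the lowest in OsPP2C36. Without WT replicate 1 the log2 fold change of OsPP2C29 was -0.77 and that of OsPP2C57 -0.39, against -1.11 for OsPP2C36. When the library labelled WT replicate 3 was left out instead, the values were -1.61, -0.82 and -0.69 in the same order, and -1.29 for OsPP2C34, with 0 of these 4 called.

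**Figure D2:**
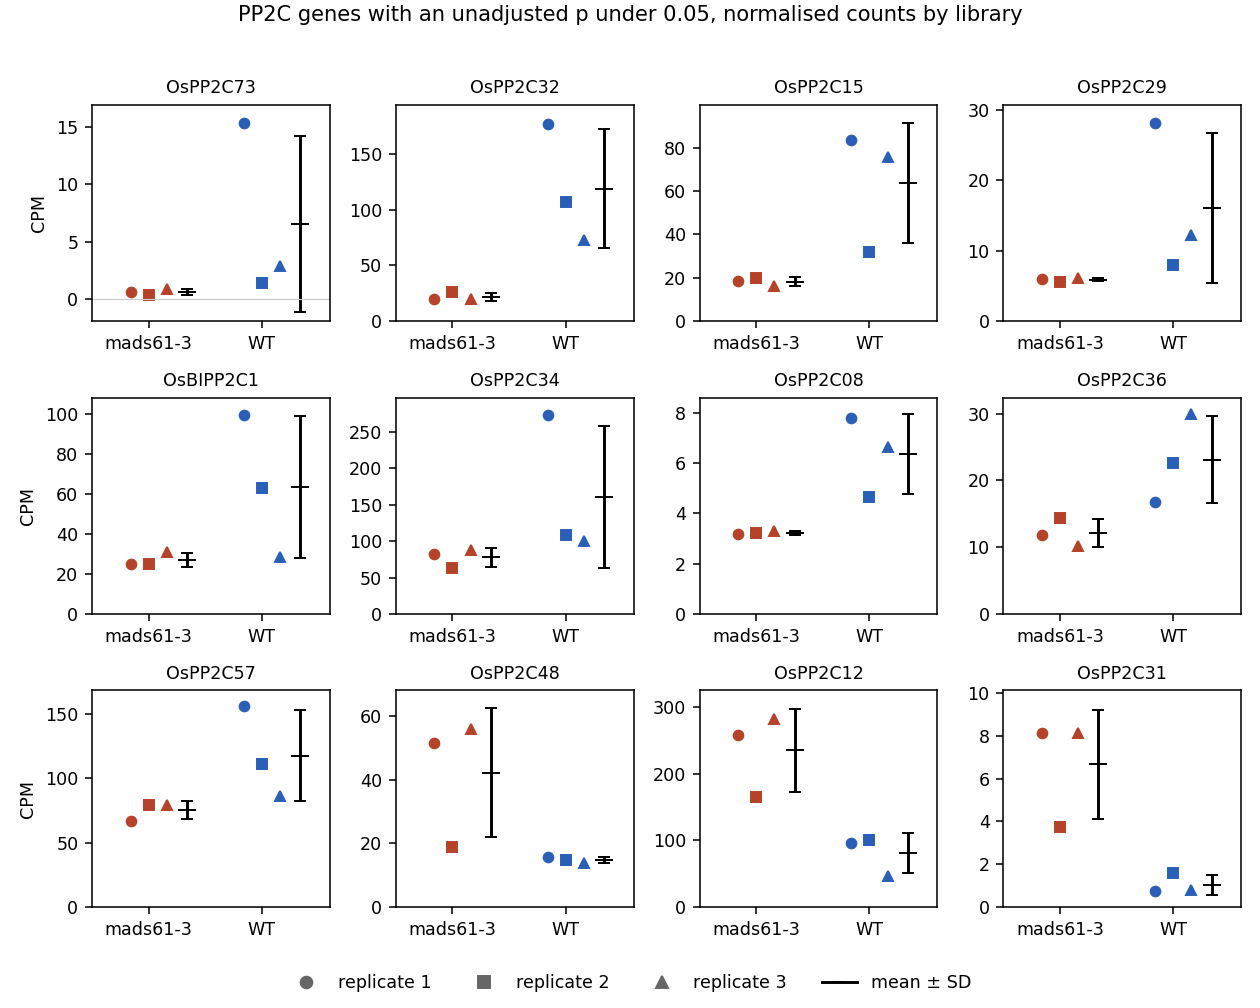
Normalised counts (CPM, vertical axes starting at or below 0) in the 3 mads61-3 and 3 WT libraries for the 12 PP2C genes with an unadjusted p under 0.05, with the replicate as the symbol and the mean ± SD as a bar. In 11 of the 12 the groups do not overlap, while in OsBIPP2C1 the library labelled WT replicate 3, at 28.5 CPM, lies inside the mutant range. The 12 were chosen by p on these same libraries, so the lack of overlap is no separate evidence (22.7% of all features had none).

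Higher in the mutant were OsPP2C31, OsPP2C12 and OsPP2C48, none of which edgeR called. OsPP2C31 (Os03g0275100, chromosome 3) had the highest log2 fold change of the tested members, with 8.13, 3.73 and 8.15 CPM in mads61-3 replicates 1 to 3, against 0.744, 1.58 and 0.783 in WT replicates 1 to 3. Its log2 fold change was 2.68 (SE 0.50, edgeR, adjusted p = 0.0606), on 614 counts in the mutant and 79 in WT. The lowest mutant library was more than 2 times the highest WT library.

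OsPP2C12 (Os02g0224100, chromosome 2) was among the most abundant members. It had 258, 164 and 281 CPM in mads61-3 replicates 1 to 3, against 96.4, 101 and 46.9 in WT replicates 1 to 3. The log2 fold change was 1.53 (SE 0.37, edgeR, adjusted p = 0.107), with no overlap between groups. OsPP2C48 (Os05g0358500, chromosome 5) had 51.6, 18.9 and 56.1 CPM in mads61-3 replicates 1 to 3, against 15.6, 14.9 and 13.7 in WT replicates 1 to 3. The WT libraries were nearly alike, and mutant replicate 2 was close to them. Its log2 fold change was 1.52 (SE 0.41, edgeR, adjusted p = 0.13).

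Mutant replicate 2, the library with the highest sum of shoot markers, held the lowest mutant value of OsPP2C31, of OsPP2C12 and of OsPP2C48. It was the lowest mutant library in 54.5% of the tested members and 40.2% of all features, and a link with the shoot markers was not tested. Without mutant replicate 2 the log2 fold changes of these 3 genes were 2.97, 1.73 and 1.87, with edgeR's adjusted p at 0.0782, 0.135 and 0.0517. Omitting the library labelled WT replicate 3 gave 2.51, 1.25 and 1.47, with edgeR's adjusted p at 0.0817, 0.0905 and 0.171. DESeq2 called these 3 genes higher on all libraries (adjusted p = 2.37e-05 for OsPP2C31, 0.00254 for OsPP2C12 and 0.0109 for OsPP2C48). The 5 that DESeq2 called lower were OsPP2C32, OsPP2C15, OsPP2C73, OsPP2C29 and OsPP2C08.

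Subfamily A was represented by 7 members, OsPP2C06, OsPP2C08, OsPP2C37, OsPP2C49, OsPP2C50, OsPP2C51 and the gene listed as PP2C1 (Os09g0325700), and 6 of them were tested. By edgeR 0 were called in either direction, where 1.25% of all features were called. Before adjustment 0 were higher and 1 lower (16.7% at p under 0.05, against 16.5% of all features). DESeq2 called 0 higher and 1 lower, where it called 8.71% of all features. The median log2 fold change of the 6 tested genes was 0.15, and all 6 lay between -0.98 and 0.44. When the library labelled WT replicate 3 was left out, the median was 0.11 and edgeR again called 0 of the 6, with OsPP2C08 at -0.94 (edgeR, adjusted p = 0.214).

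OsPP2C06 (Os01g0583100, chromosome 1), which the table also calls OsABI2, was the most abundant of the 7 listed members of subfamily A per transcript length, at 43.7 ± 8.04 FPKM in the mutant and 39.4 ± 7.81 in WT. It had 68.8, 78.8 and 63.4 CPM in mads61-3 replicates 1 to 3, against 83.3, 48.8 and 73.7 in WT replicates 1 to 3. The mutant values lay inside the WT range (log2 0.04, SE 0.25, edgeR, adjusted p = 0.96). OsPP2C50 (Os05g0537400, chromosome 5), for which RefSeq gives the synonym ABIL3, had 14.8, 18.2 and 13.2 FPKM in the mutant and 14.8, 10.3 and 11.5 FPKM in WT. Here too the groups overlapped (log2 0.22, SE 0.27, edgeR, adjusted p = 0.743).

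OsPP2C08 (Os01g0656200, chromosome 1) was the only 1 of the 6 tested members of subfamily A whose groups did not overlap. It had 3.18, 3.20 and 3.30 CPM in mads61-3 replicates 1 to 3, against 7.79, 4.63 and 6.65 in WT replicates 1 to 3. The mutant libraries were almost alike, and the log2 fold change was -0.98 (SE 0.31, edgeR, adjusted p = 0.187; DESeq2, adjusted p = 0.0395). OsPP2C51 (Os05g0572700, chromosome 5), known in rice for promoting seed germination, had 3.29, 4.49 and 8.22 CPM in the mutant and 7.62, 3.33 and 0.890 in WT. Its direction hung on single libraries: the log2 fold change was 0.44 (SE 0.74, edgeR, adjusted p = 0.821) but -0.036 once the library labelled WT replicate 3 was left out, and -0.01 without mads61-3 replicate 3.

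OsPP2C49 (Os05g0457200, chromosome 5) had 29, 66 and 15 counts in mads61-3 replicates 1 to 3, against 16, 7 and 67 in WT replicates 1 to 3. 1 library of each group stood high, and the log2 fold change was 0.08 (SE 0.87, edgeR, adjusted p = 0.974). With the library labelled WT replicate 3 left out it was 1.29 (edgeR, adjusted p = 0.462). PP2C1 (chromosome 9) had 2.92, 3.17 and 2.31 CPM in the mutant and 2.28, 2.57 and 1.81 in WT, overlapping values with a log2 fold change of 0.33 (SE 0.34, edgeR, adjusted p = 0.686). OsPP2C37 (Os04g0167900, chromosome 4) had at most 2 counts in any library and was not tested.

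**Figure D3:**
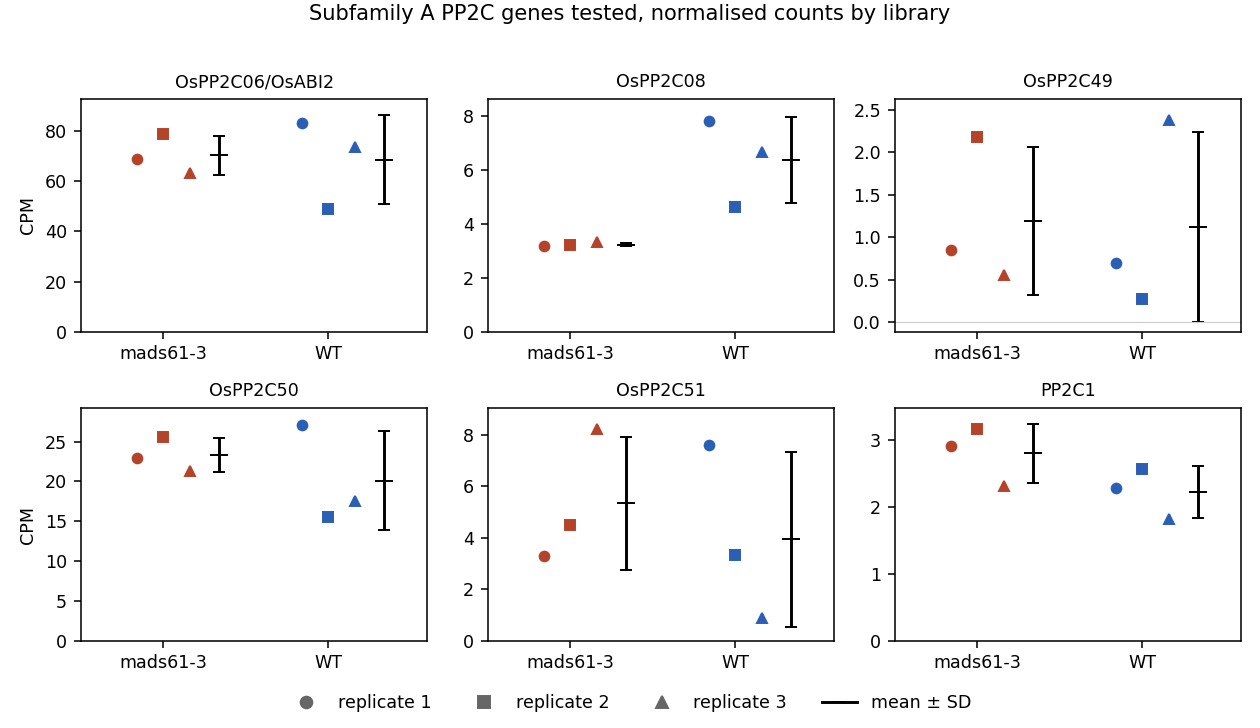
Normalised counts (CPM, vertical axes) of the 6 tested PP2C genes of subfamily A in the 3 mads61-3 and 3 WT libraries, with the replicate as the symbol and the mean ± SD as a bar. The groups overlap in all but OsPP2C08, whose mutant libraries sit between 3.18 and 3.30 CPM and WT libraries between 4.63 and 7.79.

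The members differed far more from each other in level than between the groups. Per length, 12 of the 74 members averaged 50 FPKM or more over all libraries, 28 averaged 10 to under 50, 23 averaged 1 to under 10, and 11 were under 1. The highest over all libraries were OsPP2C39 (Os04g0403701, chromosome 4) at 106 ± 37.1 FPKM in the mutant and 130.3 ± 51.6 in WT, and OsPP2C60 (Os06g0717800, chromosome 6) at 116 ± 12.1 FPKM in the mutant and 111 ± 37.2 in WT. OsPP2C11 (Os02g0180000, chromosome 2) followed at 90.3 ± 25.7 FPKM in the mutant and 126 ± 43.6 in WT, and OsPP2C10 (Os02g0149800, chromosome 2) at 80.8 ± 6.91 FPKM in the mutant and 109 ± 45.0 in WT. Neighbours among these 4 overlapped within their SD in both groups. Their log2 fold changes, from counts, were -0.40 for OsPP2C39, -0.06 for OsPP2C60, -0.58 for OsPP2C11 and -0.57 for OsPP2C10, with edgeR's adjusted p at 0.734, 0.956, 0.556 and 0.519. OsPP2C12 had 113 ± 25.1 FPKM in the mutant, level with OsPP2C60 there, but 37.2 ± 14.3 in WT. The 5 members with the highest mean CPM (these 4 and OsPP2C12) made up 28.6% to 36.5% of the family's CPM in the mutant libraries and 26.9% to 36.8% in the WT libraries.

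**Figure D4:**
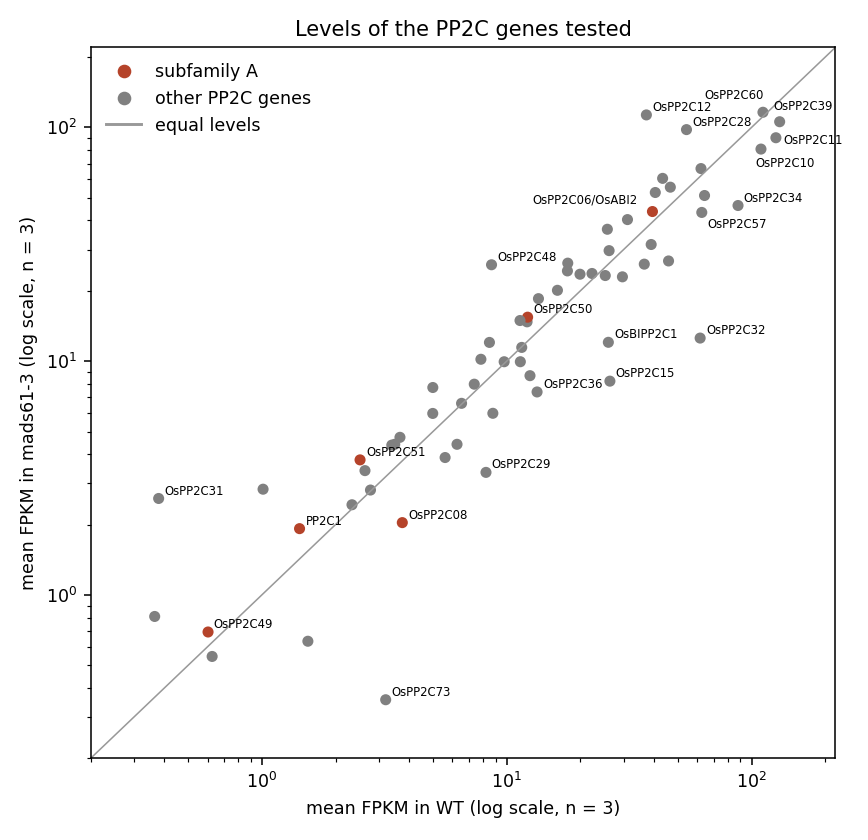
Mean FPKM (n = 3 per group, log scales) of the 66 tested PP2C genes in mads61-3 (vertical axis) against WT (horizontal axis), with subfamily A in red and the line of equal levels in grey. Most genes lie close to the line, with OsPP2C32 well below it at 12.6 FPKM in the mutant against 61.7 in WT, and OsPP2C12 above it at 113 against 37.2.

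Libraries of a group differed by about as much in the PP2C genes as in other genes, but the extreme values fell in some libraries more often. The highest WT library exceeded 2 times the lowest in 33 of the 66, against 50.6% of all features, and the same held among mutant libraries for 15 (22.7%), against 22.8% of all features. WT replicate 1 was the highest WT library in 39 of the 66 members (59.1%, against 45.2% of all features), and the library labelled WT replicate 3 the lowest in 36 (54.5%, against 40.6%). Among mutant libraries replicate 3 was the highest in 34 members (51.5%, against 32.0% of all features), replicate 1 in 9 (13.6%, against 25.7%), and replicate 2 was the lowest in 36 (54.5%, against 40.2%). These shares were not tested. Of the 11 members whose mutant libraries all lay below WT, 8 had their highest WT value in replicate 1. The matching share among all features was not computed, so whether this is particular to the members was not tested.

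The remaining 54 tested members, with an unadjusted p of 0.05 or more, had log2 fold changes from -1.34 (OsPP2C77) to 1.45 (OsPP2C46), and 51 of them were between -1 and 1. Among these 54, 30 were positive and 24 negative. The 8 members below the filter (OsPP2C18, OsPP2C22, OsPP2C23, OsPP2C24, OsPP2C37, OsPP2C42, OsPP2C61 and OsPP2C63) had at most 11 counts in any library and at most 22 in all. OsPP2C24 had 0 counts in every library, which allows a level of up to 0.0875 to 0.131 CPM depending on the library. Chromosome 2 held 17 members, more than any other, and 4 of its members were below the filter. By their locus numbers OsPP2C16, OsPP2C17, OsPP2C18, OsPP2C19 and OsPP2C20 lie within a few loci of each other there. The 4 tested genes of that row had log2 fold changes of -0.66, 0.29, 0.20 and -0.12, in that order without OsPP2C18 (OsPP2C19 changed sign with the library labelled WT replicate 3 left out), and their reads could be shared between similar copies.

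The genes that act with subfamily A in ABA signalling were examined by lists of names. Of 7 tested PYL/RCAR receptors 0 were called by edgeR, with 1 higher and 3 lower before adjustment (57.1% at p under 0.05, against 16.5% of all features). DESeq2 called 1 higher and 3 lower, where it called 8.71% of all features. Their median log2 fold change was -0.70, with 1 positive and 6 negative, and it was -1.02 with the library labelled WT replicate 3 left out. OsPYL/RCAR5 (Os05g0213500) had 36.7, 38.7 and 36.9 CPM in the mutant, against 95.7, 69.9 and 48.1 in WT (log2 -0.93, SE 0.27, edgeR, adjusted p = 0.16), and it was called lower when the library labelled WT replicate 3 was left out (edgeR, adjusted p = 0.0465). The other receptor called lower there, named because of that call, was OsPYL/RCAR4 (log2 -1.46, edgeR, adjusted p = 0.0443). OsPYL/RCAR3 (Os02g0255500) stood at 46.9 ± 6.03 CPM in the mutant and 53.7 ± 10.1 in WT (log2 -0.20, edgeR, adjusted p = 0.719).

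Of 11 tested SnRK2 kinases, a family that includes targets of subfamily A, edgeR called 1 higher, SAPK9, and 0 lower. Before adjustment 3 were higher and 1 lower (36.4%, against 16.5% of all features). DESeq2 called 2 higher, SAPK9 and SAPK1, and 1 lower, SAPK2 (log2 -1.54, DESeq2, adjusted p = 0.0136), where it called 8.71% of all features; SAPK1 and SAPK2 are named because of these calls. SAPK9 (Os12g0586100, chromosome 12) had 158, 165 and 138 CPM in mads61-3 replicates 1 to 3, against 22.8, 51.4 and 34.1 in WT replicates 1 to 3. The groups were far apart (log2 2.09, SE 0.32, edgeR, adjusted p = 0.0416). The call was lost when the library labelled WT replicate 3 was left out (log2 2.05, edgeR, adjusted p = 0.0543), without WT replicate 2 (0.0518) and without mads61-3 replicate 1, 2 or 3 (0.192, 0.103 and 0.172). The kinases' median log2 fold change was 0.12, with 6 positive and 5 negative, and 0.43 when the library labelled WT replicate 3 was left out.

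The bZIP factors of the pathway had 0 of 6 tested members called by edgeR, with 1 higher and 2 lower before adjustment (p under 0.05, against 16.5% of all features), and DESeq2 called 1 higher and 1 lower (against 8.71%). OsBZ8 stood at 130 ± 26.7 CPM in the mutant and 180 ± 132 in WT (log2 -0.47, edgeR, adjusted p = 0.719, and -0.85 with the library labelled WT replicate 3 left out), and BZIP23 at 40.3 ± 4.80 CPM in the mutant and 83.5 ± 46.2 in WT (log2 -1.05, edgeR, adjusted p = 0.24). When the library labelled WT replicate 3 was left out, edgeR called 1 higher (BZIP46, log2 3.85) and 1 lower (BZIP12, log2 -1.43), both named because of that call. Of 10 tested genes of ABA synthesis edgeR called 0, with 1 higher and 3 lower before adjustment (against 16.5% of all features), and DESeq2 called 1 higher and 2 lower (against 8.71%). The larger of the 2 falls was that of OSNCED3, named because of its call (log2 -3.86, DESeq2, adjusted p = 0.00415). It had 24, 22 and 13 counts in mads61-3 replicates 1 to 3, against 477, 8 and 195 in WT replicates 1 to 3. WT replicate 2 thus lay below the mutant, and the fall rested on the other WT libraries. AAO3 (Os03g0790900), an aldehyde oxidase gene by name, stood at 102 ± 29.1 CPM in the mutant and 39.6 ± 5.75 in WT (log2 1.36, SE 0.26, edgeR, adjusted p = 0.0636). OsAAO3 (Os07g0119400) stood at 42.3 ± 0.256 CPM in the mutant and 74.4 ± 41.7 in WT (log2 -0.82, edgeR, adjusted p = 0.371). Its WT libraries spread between 37.6 and 119.7 CPM, the highest being that labelled WT replicate 3, and with that library left out the log2 fold change was -0.29. When the library labelled WT replicate 3 was left out, 1 gene of synthesis was called lower, OsAAO1 (log2 -1.58, edgeR, adjusted p = 0.0303), which is named because of that call.

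OsABA8OX1 (Os02g0703600, chromosome 2), a hydroxylase that breaks down ABA, was 1 of 2 tested genes of its list and fell. It had 18.02, 17.7 and 21.99 CPM in mads61-3 replicates 1 to 3, against 392, 139 and 135 in WT replicates 1 to 3 (log2 -3.53, SE 0.49, edgeR, adjusted p = 0.0316). With the library labelled WT replicate 3 left out the log2 fold change was -3.79 (edgeR, adjusted p = 0.0189). The call was lost without WT replicate 2 (edgeR, adjusted p = 0.0537) and without mads61-3 replicate 1, 2 or 3 (0.169, 0.103 and 0.172).

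Of 10 tested LEA and dehydrin genes, whose proteins protect cells in drying tissue, edgeR called 1 lower, OsLEA9 (Os01g0314800, chromosome 1), and 0 higher. It had 3.35, 1.62 and 2.42 CPM in the mutant, against 36.1, 13.5 and 25.4 in WT (log2 -3.34, SE 0.47, edgeR, adjusted p = 0.0318), and it was called also when the library labelled WT replicate 3 was left out (edgeR, adjusted p = 0.0351). It was not called without mads61-3 replicate 1, 2 or 3 (0.146, 0.0900 and 0.177). Before adjustment 4 were lower and 0 higher, against 16.5% of all features, and DESeq2 called the same count, 4 lower and 0 higher, against 8.71%. Besides OsLEA9 these were OsLEA24, OsLEA3-1 and OsLEA11, named because of the DESeq2 calls, and in all 4 the mutant libraries lay below the WT libraries without overlap. The calls were made on the same libraries, so this is no separate evidence (11.3% of all features lay below without overlap). Of the 10 tested genes of the list, 4 had a positive log2 fold change and 6 a negative one. A further 21 genes of that list had too few counts to be tested.

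Across these lists and that of other phosphatase names, 1 gene was called higher and 2 lower of 86 tested (3.49%, against 1.25% of all features). The list of other phosphatase names holds PP2A subunits and genes with an OsPP number, some of which may be phosphatases of type 2C. Of its 40 tested genes edgeR called 0, with 3 lower and 0 higher at an unadjusted p under 0.05 (7.5%, against 16.5% of all features), and DESeq2 called 2 lower and 0 higher (against 8.71%). With the library labelled WT replicate 3 left out, OsPP113 was called lower (log2 -1.40, edgeR, adjusted p = 0.0207) and is named because of that call. The list's median log2 fold change was -0.11, and 38 of the 40 lay between -1 and 1. OsPP1 (Os03g0268000) had 352 ± 37.3 CPM in the mutant and 338 ± 85.2 in WT, and PP2A-A (Os09g0249700) had 301 ± 29.6 CPM in the mutant and 309 ± 57.5 in WT, so that both differed by less than the spread between libraries.

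**Figure D5:**
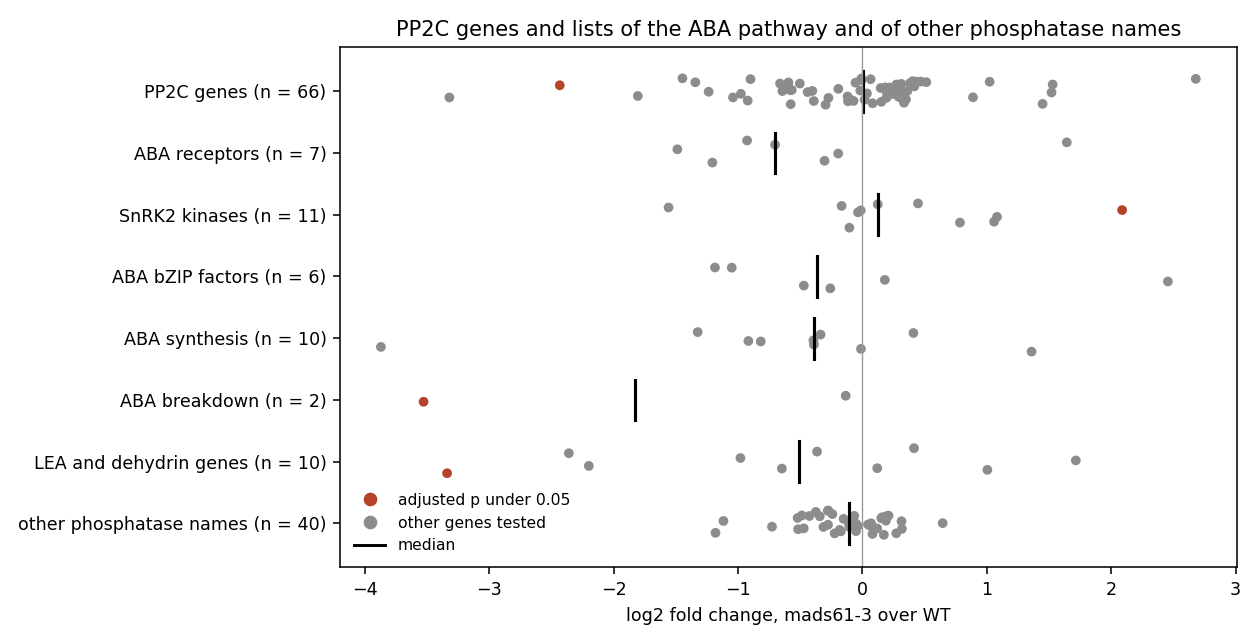
Log2 fold change (mads61-3 over WT, horizontal axis) of the tested genes of each list, 1 point a gene, with black bars at the medians and called genes in red. The 66 PP2C genes centre on 0.00 with OsPP2C32 called, while SAPK9 at 2.09, OsABA8OX1 at -3.53 and OsLEA9 at -3.34 are the called genes of the other lists.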

How the data were processed

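Root RNA of 3 mads61-3 and 3 WT samples was, per the labels' protocols, extracted with Trizol and put through a Hieff NGS Ultima Dual-mode kit for mRNA. The deposited counts are whole numbers per feature that were not normalised. The FPKM were deposited by the authors and divide by length and depth. Per the submitters' processing notes, the tools were HISAT2 2.0.5, StringTie 1.3.3, SAMtools 0.1.18, Picard 1.41, CASAVA 1.8.2 and FastQC 0.11.9, and the build was GRCh38. That build is human, while the features carry rice locus names. Which rice build and counter were used, and whether strand was, is not given in the sources used here. Hence coordinates are left out, and reads of antisense or similar genes cannot be told apart. Chromosomes are those in the locus identifiers. The columns named mads61 with a number were taken to hold line mads61-3, each with the replicate of that number.

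The counts were tested with edgeR 4.0.16 in R 4.3.3 (two-sided quasi-likelihood F-test, TMM, robust estimation, minimum count 10 and minimum total 15, a model of group alone, Benjamini-Hochberg adjustment over 25531 features). Each SE is the absolute log2 fold change over the square root of F. DESeq2 1.42.0 and limma 3.58.1 (limma-voom, and log2(FPKM + 1) or log2(FPKM + 0.1) with a mean of at least 0.5 FPKM) served as alternatives, with other size factors, no filter, a replicate block and the omission of each library. On counts simulated for this comparison over 25035 genes, edgeR called 55 of 100 genes changed by 4-fold and 96 of 100 changed by 16-fold in the right direction, with 8 unchanged genes called. Limma-voom called 51 and 93 of these, with 7 unchanged genes called. DESeq2, over 25531 genes, called 85 and 100 of these, but with 91 unchanged genes called. Genes called by DESeq2 alone are therefore less certain than those called by edgeR. The changed genes had a mean of at least 50 counts, so low-count genes are not covered.

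Members, lists and tests were chosen with earlier results of these data known. The text names each subfamily A and BIPP2C gene, each member with an unadjusted p under 0.05 or called without WT replicate 3, the 5 with the highest mean CPM, the extremes, and from each other list up to 3 called genes or else the 2 most abundant. Subfamily A was assigned from general knowledge. Of 74 members 55 matched 1 gene of the RefSeq table (assembly ASM3414082v1) by name and chromosome, which was used for synonyms alone. The floors allow for counting error alone, and the labels name no molecular identifiers by which copies of 1 molecule could be told apart.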

Additional observations from a re-analysis of the deposited data

How the results depend on the processing

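Over the settings tried, the count of PP2C genes called stayed at 0 higher and 1 lower with RLE size factors, without a filter, in limma-voom and in limma on FPKM, and OsPP2C32 was the gene in each. DESeq2 called 3 higher and 5 lower, among 2481 features called (1127 higher, 1354 lower), where edgeR called 319 (83 higher, 236 lower). For the pathway and phosphatase lists DESeq2 called 5 higher and 14 lower. Limma on log2(FPKM + 1) and on log2(FPKM + 0.1) called 2 list genes higher, and 0 without a filter. The smaller pseudocount gave 486 features called in all. With 1 library left out, PP2C genes called lower ranged from 0 to 2, all features called from 0 to 724, list genes called higher from 0 to 1 and list genes called lower from 0 to 7. Without WT replicate 2 the PP2C gene called was OsPP2C15. EdgeR called 663, 107 and 724 features without WT replicates 1, 2 and 3, and 0, 14 and 0 without mads61-3 replicates 1, 2 and 3, where 2641, 3935 and 2608 had an unadjusted p under 0.05.

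The replicate numbers gave no clear sign of pairing. Deviations from the group means of same-numbered libraries correlated at 0.138, 0.246 and -0.219 for numbers 1 to 3. Pairs with different numbers ranged from -0.322 to 0.306. For mutant replicates 1 and 2 the same-numbered WT library had the highest correlation, so pairing is not excluded. With the replicate block 0 PP2C genes were called lower (OsPP2C32 at log2 -2.34, edgeR, adjusted p = 0.0732), 81 features in all, and 0 list genes higher and 1 lower, OsLEA9.

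Among the genes picked by the naming rule given above, the sign changed for 8, none of them called by edgeR. Genes named for other reasons, such as OsPP2C19 and OsPP2C07, are not in that count. Over all 66 tested members 7 changed sign with the library labelled WT replicate 3 left out, with 0 of these called in either fit, the widest being OsPP2C07 (-0.60 with all libraries and 0.20 without). OsPP2C60 was 0.011 in limma-voom, 0.016 under the block and 0.11 in each limma fit on FPKM, and PP2A-A was 0.011 in each limma fit on FPKM. With 1 library left out, log2 fold changes ranged from -0.29 (without WT replicate 3) to 0.35 for OsPP2C60, -0.16 to 0.20 for OsPP2C06, -0.68 to 1.29 for OsPP2C49, -0.036 to 1.34 for OsPP2C51, -0.70 to 0.049 for OsPP2C39, -0.85 to 0.29 for OsBZ8, -0.12 to 0.24 for OsPP1 and -0.16 to 0.11 for PP2A-A. The causes of these changes were not tested. Depth limits the 8 untested members and low-count members such as OsPP2C73, OsPP2C49, OsPP2C51 and OsPP2C31, which had under 100 counts in at least 1 library.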
